A study of Rattus norvegicus with 6 samples.

Results

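The genes described here are 10 receptors through which liver cells sense bile acids, lipids and foreign chemicals: Nr1h4, Nr0b2, Nr5a2, Nr1i2, Nr1i3, Ahr, Rxra, Nr1h3, Ppara and Vdr. They were picked by name, with earlier results of these data known. Their probes were found through the RefSeq accession of each probe on the array. That gave 13 probes for the 10 genes, among 18355 probes for 15443 genes that could be named, and 3 of the receptor genes (Nr1h4, Nr1i3 and Nr5a2) had a pair of probes each. Liver RNA was measured on 6 one-colour Agilent arrays, 1 array per rat. The groups were 3 fibrotic livers from rats with a ligated bile duct (the duct is tied off, so bile backs up into the liver), and 3 normal livers. Strain, sex, age, time after ligation and any sham operation of the normal rats are not given in the sources used here. Rats were selected for the arrays, per the design text, and how is not stated; p-values describe the spread between these few animals.

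Nr1h4 encodes FXR, the main bile acid sensor of the hepatocyte. FXR is known to switch on Nr0b2, which encodes SHP, a receptor without a DNA-binding domain that represses other receptors, among them LRH-1 (Nr5a2) on the bile acid synthesis genes Cyp7a1 and Cyp8b1. PXR (Nr1i2) and CAR (Nr1i3) sense drugs and toxic bile acids and induce genes of detoxification, PPARα (Ppara) and LXRα (Nr1h3) sense fatty acids and oxysterols, and most of these receptors bind DNA together with RXRα (Rxra). VDR (Vdr) binds vitamin D and some bile acids. AhR (Ahr) is not a nuclear receptor but a ligand-bound transcription factor of another family that induces Cyp1a genes.

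Levels below are log2 processed signals minus the 75th percentile of the same array, called relative log2 levels, and differences are fibrosis minus normal. The scanner software marked some spots as non-uniform or as outliers within their probe. The values reported first leave such marked spots out, and values with marked spots kept stand beside them, because many bright probes lost arrays when marked spots were left out. Between 18.8% and 33.0% of spots were marked on the fibrosis arrays and between 24.0% and 35.2% on the normal arrays. The 75th percentile of the signal averaged 5453 ± 833 on the fibrosis arrays and 4016 ± 330 on the normal arrays (SD, n = 3 each), and precision is limited by having 3 arrays per group. Correlations between arrays over 10864 genes ran from 0.931 to 0.966 among fibrosis arrays and from 0.982 to 0.989 among normal arrays. They are correlations over genes of 1 array against another, and genes are no replicates. With 3 arrays against 3, an exact permutation test of a single gene cannot give a two-sided p below 0.1, so the tests come from limma fitted across all genes, with Benjamini-Hochberg adjustment and a threshold of 0.05.

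With marked spots left out, 8 of the 10 receptor genes could be tested. Nr0b2 and Ppara were lower in fibrosis, 2 of 8, and 0 were higher. Over all 7433 genes tested, 5.77% were lower and 18.2% were higher. The median difference of the 8 receptor genes was -0.67 on the log2 scale, against 0.03 over all genes tested, and 7 of 8 differences were below 0, against 48.5% of all genes. Unadjusted p was under 0.05 in either direction for 2 of 8 receptor genes, against 35.7% of all genes, a share no higher than that of all genes. With marked spots kept, 9 receptor genes could be tested and 3 were lower, Nr0b2, Ppara and Nr1h4, with a median of -0.78 and 7 of 9 differences below 0, against 53.6% of all genes. Of all 10864 genes tested in that setting 9.12% were lower and 15.8% were higher, with a median of -0.07. Unadjusted p was under 0.05 for 5 of 9, against 37.2% of all genes. Ahr was tested in neither setting because it was not well above background on every array of either group. In whole tissue, fewer cells of a type and less RNA per cell cannot be told apart.

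Cell type markers differed between the same arrays. Of 12 cholangiocyte markers tested with marked spots kept, 11 rose, and their mean relative log2 level was 0.24, 0.62 and -0.01 on fibrosis arrays 1 to 3, against -3.50, -3.17 and -3.47 on normal arrays 1 to 3. Of 11 stellate cell and myofibroblast markers, 7 rose. Macrophage markers gave 2 that rose (Itgam and Trem2) and 1 that fell (Cd14) of 10. All 12 hepatocyte markers were measured and had differences below 0, with a median of -0.69, and 1 of them, Asgr1, passed the test. Their mean relative log2 level was 2.36, 2.33 and 2.15 on the fibrosis arrays, against 2.80, 3.11 and 3.03 on the normal arrays. Hnf4a is both a hepatocyte marker and 1 of the other nuclear receptors. The part of these cell type differences in the values of the receptors and of their target genes was not tested.

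Nr0b2, the FXR-induced repressor, had the largest difference of the receptor genes tested. Its relative log2 level was -0.66, -1.23 and 0.06 on fibrosis arrays 1 to 3, against 1.41, 1.42 and 2.90 on normal arrays 1 to 3. The groups did not overlap, and normal array 3 stood above the other two normal arrays by more than the distance between those. The difference was -2.52 ± 0.48 (SE), with a 95% interval from -3.63 to -1.41, which is a 5.72-fold lower signal (limma adjusted p = 0.00702). It was -2.53 with marked spots kept (adjusted p = 0.00708). Nr0b2 remained lower without normal array 3, without each other array in turn, and with every other scaling, filter and probe rule tried. The arrays lay in rows of 1 slide, with fibrosis arrays 2 and 3 in a row of their own and fibrosis array 1 in the row of the 3 normal arrays. With the slide row as a block, an alternative added after the data were seen that leaves fibrosis array 1 against the normal arrays, the difference was -2.57 and the adjusted p was 0.0719.

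The start of Nr0b2 is shown because this gene changed most and because LRH-1, which is known to bind sites that contain TCAAGG, is also known to act on the Nr0b2 promoter. The sequence is the 250 bases before the annotated start in RefSeq's rat genome GRCr8, chr5:151062910-151063159, plus strand. Capitals mark matches to TCAAGG, to the AhR core GCGTG and to the TATA motif TATAAA.
Nr0b2: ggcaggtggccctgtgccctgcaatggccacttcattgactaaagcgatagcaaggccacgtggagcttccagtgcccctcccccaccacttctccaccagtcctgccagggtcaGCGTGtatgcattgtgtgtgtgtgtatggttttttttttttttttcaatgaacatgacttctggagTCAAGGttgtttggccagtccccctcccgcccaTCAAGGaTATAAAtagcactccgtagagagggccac
It holds TCAAGG 2 times, GCGTG 1 time and TATAAA 1 time, and the second TCAAGG ends 1 base before TATAAA without overlap. On both strands, TCAAGG occurs in 12.6%, GCGTG in 25.9% and TATAAA in 12.9% of 33469 rat promoter windows of the same length. The nuclear receptor half-site AGGTCA, found in 14.1% of those windows, has 0 matches in this one. The motifs were chosen with the sequence in view, and matches are descriptions of letters only.

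Nr1h4 itself was measured by a pair of probes that did not give the same call. Probe A_64_P150587, which has 1 spot per array, read 0.94, 0.94 and 0.89 on fibrosis arrays 1 to 3, against 1.84, 1.92 and 2.01 on normal arrays 1 to 3, with marked spots kept. The groups did not overlap, and the arrays of each group lay within a narrow range. This probe stood for Nr1h4 with marked spots kept, where the difference was -1.00 ± 0.21 (SE), with an interval from -1.48 to -0.52, or 2.00-fold lower (limma adjusted p = 0.0105). Its spot was marked on fibrosis arrays 2 and 3, so with marked spots left out only 1 fibrosis value remained and it could not be tested.

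Probe A_64_P128653 of Nr1h4, with 2 spots per array, read 0.36, -0.17 and 0.93 on fibrosis arrays 1 to 3, against 1.20, 0.92 and 0.95 on normal arrays 1 to 3, with marked spots kept. Here fibrosis array 3 lay inside the normal range. The difference of this Nr1h4 probe was -0.65 ± 0.31 (SE) with marked spots kept (limma adjusted p = 0.170), and with marked spots left out it was -0.43 ± 0.35 from 2 arrays per group (adjusted p = 0.432). The lower call of Nr1h4 therefore rests on the 1-spot probe, and it passed the test neither without normal array 2 (-1.00, adjusted p = 0.0520) nor without normal array 3 (-0.96, adjusted p = 0.0656), nor with arrays scaled to the E1A spike-in control probes (-0.69, adjusted p = 0.192).

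Nr5a2, which encodes LRH-1, the activator that SHP represses, showed no difference that passed the test. Probe A_64_P035940 gave -1.29, -2.10 and 0.14 on fibrosis arrays 1 to 3, against -0.85, -1.45 and -0.93 on normal arrays 1 to 3, with marked spots kept. The groups overlapped, with fibrosis array 3 above every normal array and fibrosis array 2 below them. The spot of Nr5a2 on fibrosis array 3 was marked, and without it the difference was -0.62 ± 0.36 (limma adjusted p = 0.259), while with it the difference of this probe was -0.01 ± 0.52. The other probe of Nr5a2 gave 0.03 ± 0.51 with marked spots kept, and its interval from -1.14 to 1.21 allows a change of more than 2-fold either way. That probe had marked spots on 1 fibrosis array and on all 3 normal arrays. With marked spots left out it had 0 normal values and could not be tested.

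**Figure D1:**
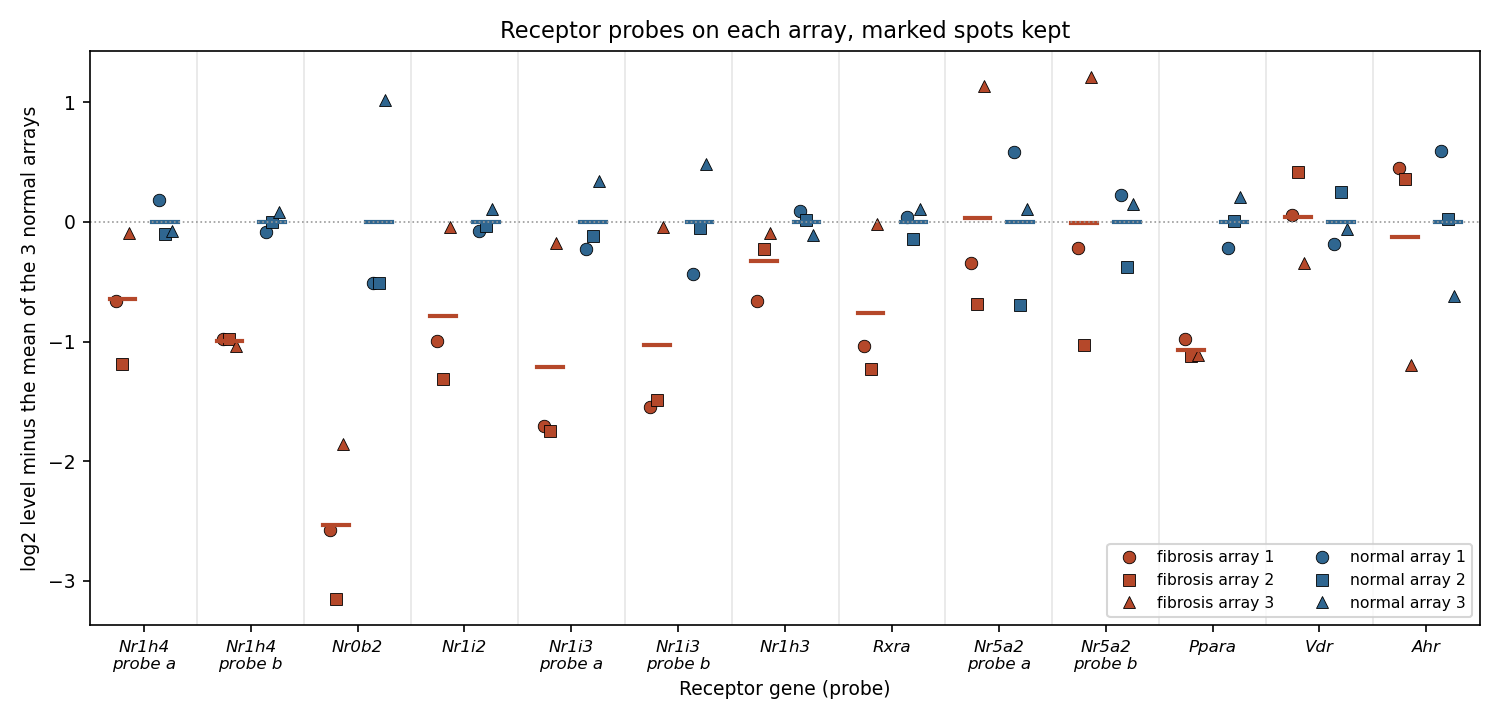
Relative log2 level of each of the 13 receptor probes on every array, minus the mean of the 3 normal arrays, with marked spots kept. Red symbols are fibrosis arrays and blue symbols normal arrays 1 to 3 (circle, square, triangle), and bars are group means. Nr0b2, Ppara and 1 of the Nr1h4 probes have every fibrosis array below every normal array, and fibrosis array 3 lies close to the normal mean for Nr1i2, Nr1i3 and Rxra.

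The xenobiotic sensors Nr1i2 and Nr1i3 were lower on 2 of the 3 fibrosis arrays and within the normal range on the other, and Ahr was not. Nr1i2, which encodes PXR, read 1.30, 0.98 and 2.25 on fibrosis arrays 1 to 3, against 2.22, 2.26 and 2.40 on normal arrays 1 to 3. Fibrosis arrays 1 and 2 lay below every normal array and fibrosis array 3 lay within the normal range. The difference was -0.78 ± 0.34 (SE), with an interval from -1.57 to 0.00, and it did not pass the test (limma adjusted p = 0.141). Without fibrosis array 3 the Nr1i2 difference was -1.15 (adjusted p = 0.0113). That array was already seen to lie at the normal level, and Nr1i2 did not pass without any other single array. With the array median as scaling Nr1i2 passed too (-1.14, adjusted p = 0.0443), where 15.7% of all genes were lower.

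Nr1i3, which encodes CAR, was measured with marked spots kept only, because most of its spots on the normal arrays were marked. Its brighter probe read -1.00, -0.94 and 0.51 on fibrosis arrays 1 to 3, against 0.11, 0.50 and 1.04 on normal arrays 1 to 3. The difference of that Nr1i3 probe was -1.03 ± 0.44 (SE) and did not pass (limma adjusted p = 0.131), and without fibrosis array 3 it was -1.52 (adjusted p = 0.0113). No other single array left out gave a pass for Nr1i3. With the array median as scaling Nr1i3 passed (-1.38, adjusted p = 0.0435). Its other probe read -1.74, -1.78 and -0.20 on fibrosis arrays 1 to 3, against -0.25, -0.14 and 0.31 on normal arrays 1 to 3, and differed by -1.21 ± 0.43 (adjusted p = 0.0776). Both Nr1i3 probes thus placed fibrosis arrays 1 and 2 below every normal array and fibrosis array 3 inside the normal range.

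Rxra, the shared DNA-binding partner of these receptors, showed the same pattern. It read -3.58, -3.77 and -2.56 on fibrosis arrays 1 to 3, against -2.62, -2.72 and -2.44 on normal arrays 1 to 3. The difference of Rxra was -0.71 ± 0.34 (SE) and did not pass (limma adjusted p = 0.176), and without fibrosis array 3 it was -1.08 (adjusted p = 0.0140). Leaving out any other single array did not bring Rxra past the threshold. With marked spots kept and the array median as scaling, Rxra passed (-1.12, adjusted p = 0.0401). Ahr was close to background, with -5.76, -5.85 and -7.41 on fibrosis arrays 1 to 3, against -5.62, -6.19 and -6.83 on normal arrays 1 to 3. Array 3 of each group did not stand well above background. With no filter on dim probes Ahr differed by -0.13 ± 0.51, with an interval from -1.29 to 1.03 (limma adjusted p = 0.901), which does not exclude a change of 2-fold either way.

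Ppara, the fatty acid sensor that drives fat oxidation in the fasting liver, was lower on all fibrosis arrays. It read -4.85, -4.99 and -4.99 on fibrosis arrays 1 to 3, against -4.09, -3.86 and -3.66 on normal arrays 1 to 3. The groups did not overlap, and the fibrosis arrays lay closer together than the normal arrays. The difference of Ppara was -1.07 ± 0.23 (SE), with an interval from -1.60 to -0.54, or 2.10-fold lower (limma adjusted p = 0.0118). None of its 2 spots was marked on any array. It no longer passed without normal array 3 (-0.97, adjusted p = 0.0702), with scaling to the E1A control probes (-0.76, adjusted p = 0.165), and with the slide row as a block (-0.98, adjusted p = 0.117).

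The 250 bases before the start of Ppara, chr7:118712357-118712606 of GRCr8, plus strand, are shown for comparison with those of Nr0b2, since both genes fell. Capitals mark matches to GCGTG on either strand.
Ppara: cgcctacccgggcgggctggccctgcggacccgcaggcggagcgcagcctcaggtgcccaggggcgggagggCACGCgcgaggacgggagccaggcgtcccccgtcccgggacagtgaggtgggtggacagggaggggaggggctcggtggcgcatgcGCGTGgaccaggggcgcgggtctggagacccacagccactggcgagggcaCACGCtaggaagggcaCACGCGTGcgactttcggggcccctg
This window has a GC content of 76.0%, and that of Nr0b2 has 52.8%. It holds GCGTG on 1 strand or the other 5 times, of which 2 overlap, and has 0 matches to the other motifs searched.

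Nr1h3 and Vdr, the oxysterol and vitamin D receptors, differed least among the genes tested with marked spots left out. Nr1h3 read 2.12, 2.55 and 2.69 on fibrosis arrays 1 to 3, against 2.87, 2.80 and 2.67 on normal arrays 1 to 3. The groups overlapped only at their edge, with fibrosis array 3 just above the lowest normal array. Its difference was -0.33 ± 0.25 (SE, limma adjusted p = 0.385), and it turned to 0.05 with quantile normalization and 0.04 with cyclic loess. Vdr read -4.77, -4.42 and -5.18 on fibrosis arrays 1 to 3, against -5.02, -4.58 and -4.90 on normal arrays 1 to 3. The Vdr groups overlapped and the difference was 0.04 ± 0.28, with an interval from -0.59 to 0.68 (adjusted p = 0.927). Its sign changed with the scaling.

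**Figure D2:**
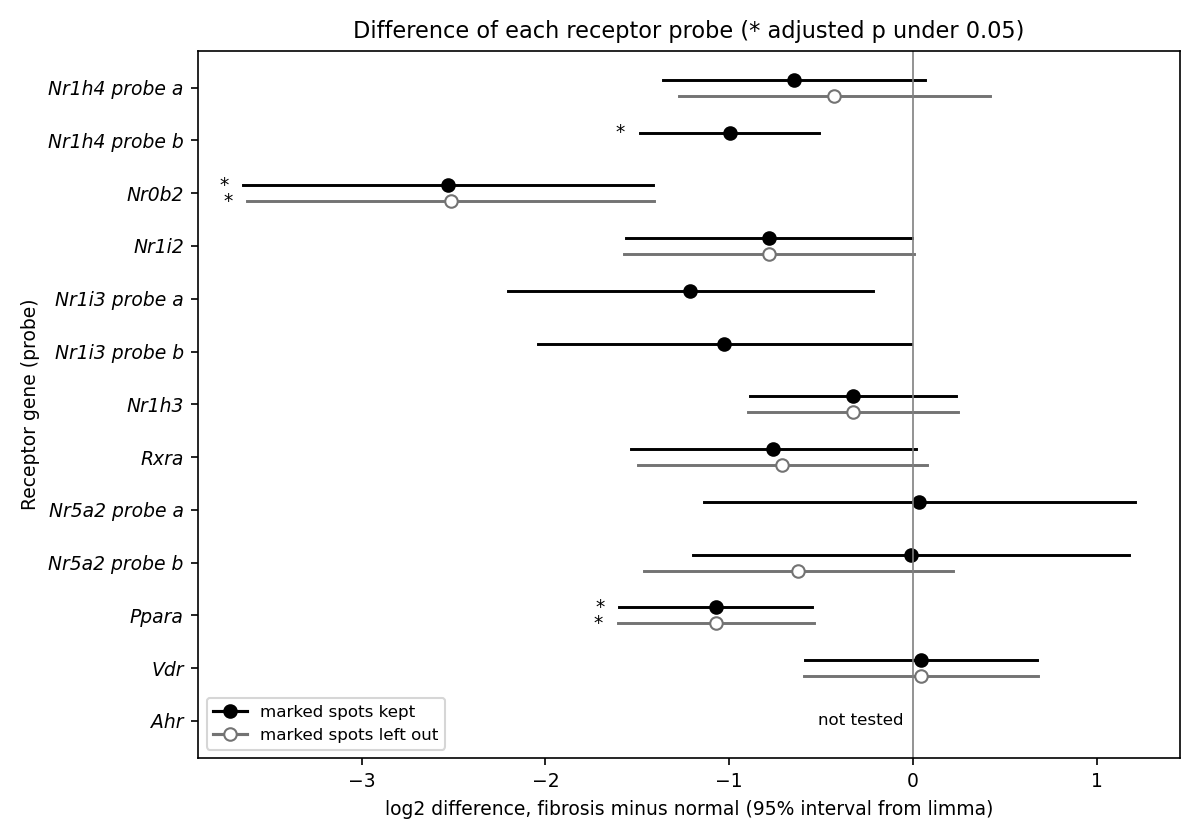
Log2 difference, fibrosis minus normal, of each receptor probe with its 95% interval from limma, with marked spots kept (filled) and left out (open). Asterisks mark an adjusted p under 0.05 with each probe tested on its own, which Nr0b2 and Ppara reach in both settings and 1 Nr1h4 probe with marked spots kept.

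With each probe tested on its own, the receptor genes had 2 lower probes with marked spots left out, against 5.89% of all probes lower and 18.4% higher. They had 3 lower probes with marked spots kept, against 9.05% of all probes lower and 15.3% higher.

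Read across arrays, most receptor genes showed 1 of 2 patterns. With marked spots kept, 3 of the 9 tested genes (Nr0b2, Ppara and Nr1h4) had every fibrosis array below every normal array, against 20.9% of all genes, and 0 had the reverse, against 22.1% of all genes. For 4 of 9 (Nr1i2, Nr1i3, Rxra and Nr1h3) fibrosis arrays 1 and 2 lay below every normal array and fibrosis array 3 did not, against 9.49% of all genes. With marked spots left out, the same patterns held 2 of 6 genes, against 15.1% of all genes, and 3 of 6 genes, against 8.74%, while 0 of 6 had every fibrosis array above every normal array, against 26.6%. The median difference of the 9 receptor genes from the normal mean was -0.98 on fibrosis array 1, -1.12 on fibrosis array 2 and -0.09 on fibrosis array 3. Over all genes those medians were -0.10, -0.03 and -0.0026. The other 2 of the 9 genes were Vdr, with fibrosis array 3 alone below every normal array, and Nr5a2, with none. The second pattern was noticed in these values and is a description. Among the fibrosis arrays, cholangiocyte, stellate cell and hepatocyte markers were lowest on array 3, and macrophage markers were lowest on array 2. The mean relative log2 level was 0.38, 0.62 and -0.20 for stellate cell markers and 0.39, 0.10 and 0.36 for macrophage markers on fibrosis arrays 1 to 3.

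The scaling of the arrays moved the receptor values. The median over all genes was 0.03 with the 75th percentile, -0.13 with quantile normalization, -0.33 with the array median, 0.03 with cyclic loess and 0.35 with scaling to the E1A controls. The median of the 8 receptor genes was -0.67, -0.67, -1.04, -0.54 and -0.35 under the same scalings, below that of all genes each time. The 75th percentile, array median and E1A scalings each subtract a single value per array. Among those scalings the distance between the medians was therefore all but fixed beforehand. Nr0b2 was called lower under all 5 scalings. Ppara was called lower under 4 of them, all but the E1A scaling. With marked spots kept, 6 of 9 receptor genes were lower with the array median, where 23.5% of all genes were lower. With the E1A scaling 1 of 9 was lower, where 2.21% of all genes were lower.

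**Figure D3:**
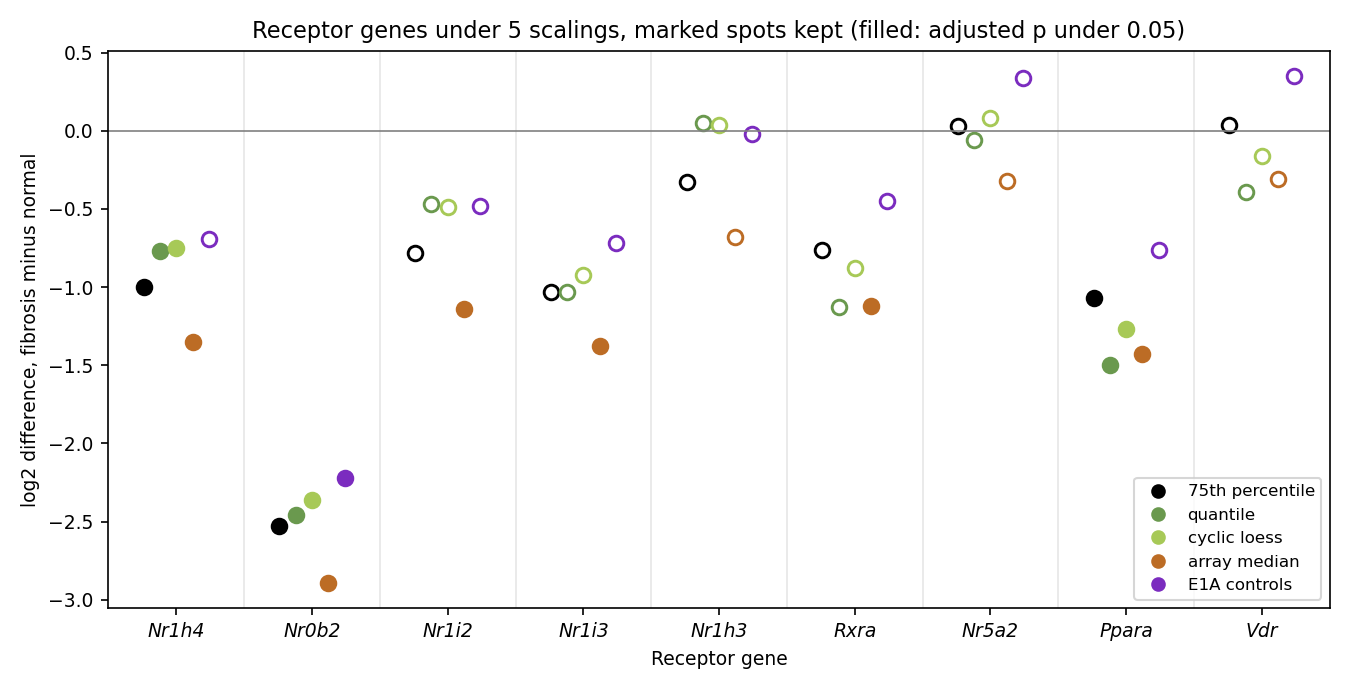
Log2 difference, fibrosis minus normal, of the 9 receptor genes under 5 scalings of the arrays, with marked spots kept. Filled points have an adjusted p under 0.05. Nr0b2 is filled under all 5 scalings, and Nr1h3, Nr5a2 and Vdr lie on both sides of 0.

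The genes whose profile over the 6 arrays was most like that of Nr0b2 were sought by the root mean square distance between profiles, each centred on its own mean. Among 5504 genes with a value on every array, the nearest were Slc30a10, a manganese exporter, at 0.179 log2 units, Abcb1a, a drug efflux pump and a PXR target, at 0.359, and Prtg, protogenin, at 0.369. Slc30a10 read -7.08, -7.48 and -6.15 on fibrosis arrays 1 to 3, against -4.85, -4.66 and -3.74 on normal arrays 1 to 3, so that normal array 3 was highest here as well. Slc30a10 stood well above background on 0 of 3 fibrosis arrays and Abcb1a on 1 of 3, so their distances and rank rest partly on readings near the floor. When marked spots were kept, Inhbe, a hepatokine of the activin family, took the place of Prtg at a distance of 0.357. Nr1h4 was compared with the rest of the 10864 genes that had a value on every array with marked spots kept. The nearest to Nr1h4 were Adipor2, an adiponectin receptor, at 0.034, C8h15orf61 at 0.068 and Gsta2, a glutathione transferase, at 0.069. The Nr1h4 profile used here is that of its 1-spot probe, marked on fibrosis arrays 2 and 3. Its other probe had a different profile. Adipor2 read 0.75, 0.82 and 0.71 on fibrosis arrays 1 to 3, against 1.72, 1.81 and 1.83 on normal arrays 1 to 3. These distances describe likeness over 6 arrays that differ mainly by group.

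Target genes of the receptors are mostly bright in liver, so their counts are given with marked spots kept, where the share of all genes that fell is the 9.12% above. The lists of targets and partners were also chosen with earlier results of these data known. Counting each gene once, 43 of 111 target and partner genes fell and 6 rose with marked spots kept, and 11 of 60 fell and 5 rose with marked spots left out. The 43 that fell were 24 without normal array 2, 22 without normal array 3, 27 with quantile normalization, 25 with cyclic loess, 14 with the E1A scaling and 10 with the slide row as a block. The share of all genes that fell moved as well. Leaving out normal array 1, 2 or 3 gave 5.24%, 3.75% and 3.12%. It was 9.53% with quantile normalization, 6.59% with cyclic loess, 23.5% with the array median, 2.21% with the E1A scaling and 1.40% with the slide row as a block. Among the genes described next, that block also ended the calls of Slco1b2, Ugt1a6, Ehhadh, Fgf21, Cyp2r1 and Nr2f1 (adjusted p from 0.107 to 0.196). The calls of Slc10a1, Abcb11, Abcc2, Cyp8b1, Fasn, Ppargc1a and Nrip1 were lost with it too. Of 15 tested FXR target and bile acid genes, 8 fell and 0 rose, with a median of -0.80 against -0.07 for all genes. They included the uptake carriers Slco1b2 (-1.52 ± 0.33, limma adjusted p = 0.0124) and Slc10a1 (-1.42, adjusted p = 0.00681), the export pumps Abcb11 (-1.06, adjusted p = 0.0127) and Abcc2 (-1.75, adjusted p = 0.00296), and Cyp8b1, the sterol 12α-hydroxylase (-1.56 ± 0.48, adjusted p = 0.0450). Slc10a1, Abcb11 and Abcc2 were named after their values were seen. The list holds Cyp7a1 and Cyp8b1, which SHP represses, together with carriers and pumps. It was not split by the direction in which FXR acts, so its count and median do not measure FXR activity. Slco1b2 read 1.39, 0.70 and 0.94 on fibrosis arrays 1 to 3, against 1.92, 2.98 and 2.69 on normal arrays 1 to 3, and missed the test without normal array 2 (-1.30, adjusted p = 0.0553) or 3 (-1.44, adjusted p = 0.0588). The count of 8 was 1 with the E1A scaling, 5 with cyclic loess, 10 with the array median, 5 without any 1 of the 3 normal arrays, and 0 with the slide row as a block.

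Cyp7a1, whose enzyme sets the pace of bile acid synthesis and which SHP represses, read 1.42, 0.95 and 0.75 on fibrosis arrays 1 to 3, against -0.56, 0.60 and -1.41 on normal arrays 1 to 3. The groups did not overlap, but the normal arrays were widely spread. Its difference was 1.49 ± 0.48 (SE) and just missed the test (limma adjusted p = 0.0530), and it passed without normal array 2 (2.02, adjusted p = 0.0118) and under 6 other alternatives. Cyp8b1, which SHP also represses, read -0.14, -1.09 and 0.67 on fibrosis arrays 1 to 3, against 1.58, 1.85 and 0.71 on normal arrays 1 to 3. Leaving out fibrosis array 1 or 2, or normal array 1 or 2, ended the call of Cyp8b1, with adjusted p from 0.0985 to 0.150. It also ended with quantile normalization, cyclic loess, the E1A scaling, no filter on dim probes and the slide row as a block (adjusted p from 0.0687 to 0.266). Pltp, another FXR target, differed by 0.37 and did not pass.

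Of 20 tested PXR and CAR targets, 13 fell and 1 rose, with a median of -1.05. Cyp3a9, a steroid and drug hydroxylase, read -4.53, -2.32 and -2.87 on fibrosis arrays 1 to 3, against 0.88, 1.87 and 2.11 on normal arrays 1 to 3, and was 29.0-fold lower (-4.86 ± 0.57, limma adjusted p = 0.000641). Cyp3a23-3a1 was 4.62-fold lower (-2.21 ± 0.25, adjusted p = 0.000503). Cyp3a genes are near copies of each other, so probe signals of single members are uncertain. The gene that rose was Abcc3, an export pump of the basolateral membrane, which read -2.22, -3.64 and -3.54 on fibrosis arrays 1 to 3, against -4.81, -4.92 and -6.23 on normal arrays 1 to 3 (2.19 ± 0.50, adjusted p = 0.0153 with marked spots left out). On normal liver, 2 of 3 arrays had Abcc3 well above background, so it entered the test through the fibrosis arrays only. Abcc3 dropped out where a probe had to be well above background on all 6 arrays, and 0 targets rose there. Gadd45b differed by 0.16 and did not pass. The 13 targets that fell were 7 without normal array 3, 7 with the E1A scaling and 5 with the slide row as a block.

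Cyp1a2, the classical AhR target of liver, read 0.90, 0.13 and 0.47 on fibrosis arrays 1 to 3, against 2.43, 2.75 and 2.81 on normal arrays 1 to 3. The groups stood far apart, and the difference was -2.16 ± 0.27, or 4.47-fold lower (limma adjusted p = 0.000938). Of 6 tested AhR targets, 3 fell with marked spots kept: Cyp1a2, Ugt1a6, a phenol glucuronosyltransferase (-1.46 ± 0.28, adjusted p = 0.00719), and Gsta2 (-0.95, adjusted p = 0.0141). Ugt1a6 gave -0.30 (adjusted p = 0.684) with its dimmest probe, so its probes disagreed. Without normal array 2 or 3 the count of 3 was 2, and with the E1A scaling or the slide row as a block it was 1. Nfe2l2 differed by 0.27 and did not pass. None of the 5 tested partners that hold AhR in the cytosol or pair with it passed in either direction with limma, and 0 of them had an unadjusted p under 0.05, against 37.2% of all genes. With the array median as scaling, Hsp90ab1 passed (-0.82, adjusted p = 0.0345). Their differences ran from -0.46 (Hsp90ab1, a chaperone) to -0.02, with Ptges3, a cochaperone, at -0.36.

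All 21 PPARα targets were measured with marked spots kept, and 15 fell and 0 rose, with a median of -1.01. All 21 differences were below 0, against 53.6% of all genes. The 12 hepatocyte markers were likewise all below 0, with a median of -0.69. Ehhadh, a peroxisomal fat oxidation enzyme, read 1.35, -1.45 and 0.32 on fibrosis arrays 1 to 3, against 2.76, 3.25 and 3.35 on normal arrays 1 to 3, and was 8.25-fold lower (-3.04 ± 0.62, limma adjusted p = 0.00920). Fgf21, a fasting hormone of the liver, read -2.09, -2.51 and -0.09 on fibrosis arrays 1 to 3, against 0.62, 0.06 and 1.19 on normal arrays 1 to 3. Fibrosis array 3 again lay nearest the normal arrays. Its difference was -2.18 ± 0.60 (adjusted p = 0.0318), which passed without fibrosis array 3 but was lost without any other single array, with adjusted p from 0.0504 to 0.118. The count of 15 depended on the processing: it was 19 with the array median, 5 with quantile normalization, 5 with cyclic loess, 2 with the E1A scaling and 0 with the slide row as a block, while the share of all genes lower in these settings was 23.5%, 9.53%, 6.59%, 2.21% and 1.40%. Without normal array 1, 2 or 3 it was 6, 4 and 4.

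LXR targets moved both ways. Of 9 tested with marked spots kept, 2 rose and 2 fell, with a median of 0.37. Of all genes in that setting, 15.8% rose and 9.12% fell. Scd, the stearoyl-CoA desaturase, read -1.39, -1.82 and 0.49 on fibrosis arrays 1 to 3, against 2.44, 1.65 and 2.16 on normal arrays 1 to 3, and was 7.96-fold lower (-2.99 ± 0.56, limma adjusted p = 0.00613). Abcg5, a sterol exporter, was 3.57-fold lower with marked spots left out (-1.84 ± 0.31 from 2 unmarked normal arrays, adjusted p = 0.00577). Lpl, lipoprotein lipase, rose by 2.55 ± 0.65 from 2 unmarked fibrosis arrays (adjusted p = 0.0282), and lost its call without any 1 normal array (adjusted p from 0.0575 to 0.0758). Fasn, fatty acid synthase, rose by 0.85 ± 0.26 (adjusted p = 0.0437) and, of the arrays left out in turn, kept its call only without normal array 1. Fasn also missed the test with the array median (0.50, adjusted p = 0.177), with quantile normalization (0.0534), with no filter on dim probes (0.0834) and with the slide row as a block (0.268).

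Of the 3 vitamin D genes that could be tested, 2 fell. S100g, a calcium-binding protein, stood well above background on 0 of 3 fibrosis arrays, so its fall is a bound of at least 3.33-fold. Such a bound sets the mean of the brighter group against the dimmest signal that counts as well above background on each array, or the probe's own signal where that is higher. The limma adjusted p of S100g, 0.00205, comes from readings near background on the fibrosis arrays and does not test the bound. S100g entered the test through the normal arrays only and dropped out where a probe had to be well above background on all 6 arrays. Cyp2r1, a vitamin D 25-hydroxylase, differed by -1.55 ± 0.31 from 2 unmarked normal arrays (adjusted p = 0.0109), and by -1.24 with the E1A scaling (adjusted p = 0.103). Camp read -3.23, -5.39 and -3.79 on fibrosis arrays 1 to 3, against -5.47, -5.38 and -6.34 on normal arrays 1 to 3, and differed by 1.59 ± 0.54 (adjusted p = 0.0697). It passed without fibrosis array 2 (2.22, adjusted p = 0.00842). Camp stood well above background on 2 of 3 normal arrays, so it entered the test through the fibrosis arrays only. It also dropped out under the stricter filter.

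**Figure D4:**
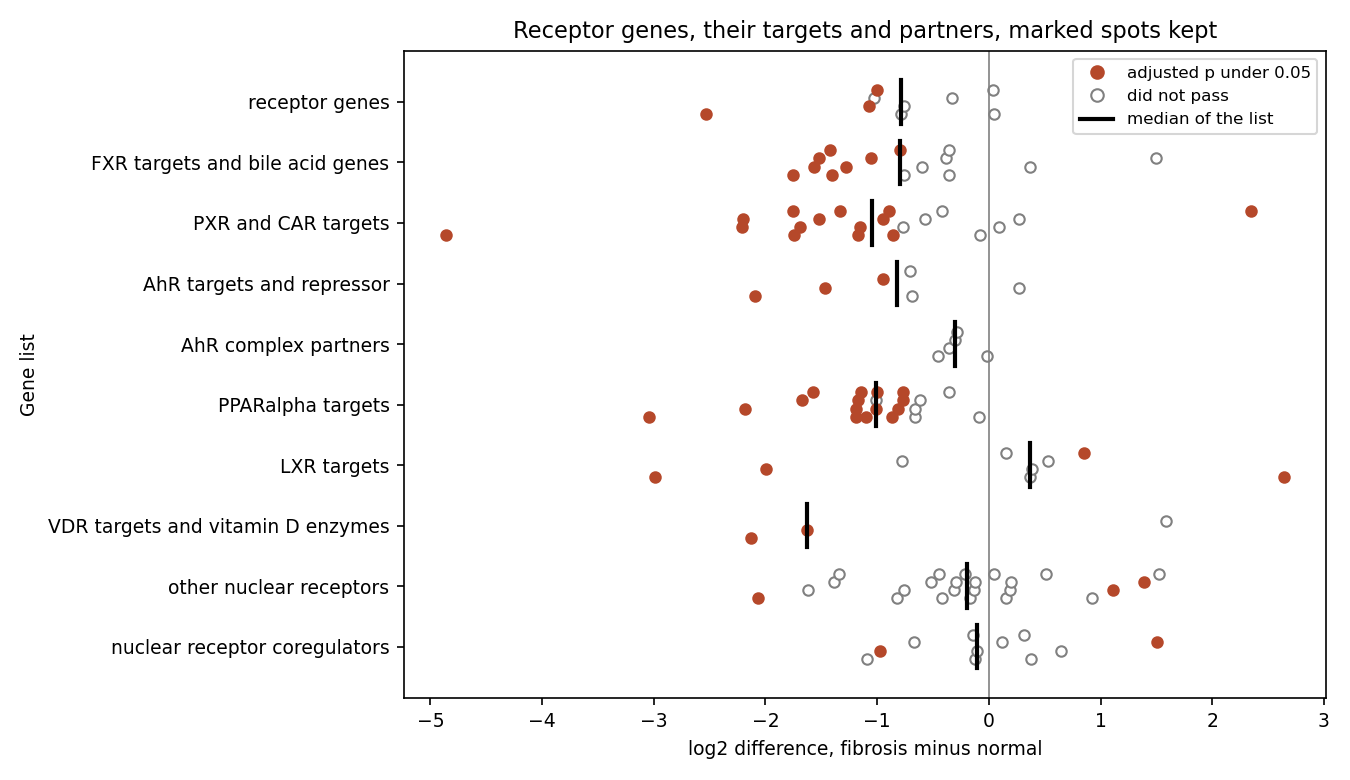
Log2 difference, fibrosis minus normal, of each tested gene of the receptor genes and of their target and partner lists, with marked spots kept. Each point is a gene, filled where the adjusted p is under 0.05, and black bars are medians. PXR and CAR targets and PPARα targets have medians of -1.05 and -1.01, and LXR targets, other nuclear receptors and coregulators have genes on both sides of 0.

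Other nuclear receptors were counted in the same way, and the difference between lists was not tested. Of 24 tested with marked spots kept, 1 fell, with a median of -0.20, which was 0.11 with the E1A scaling. Nr1d2, a heme-binding clock repressor, stood well above background on 0 of 3 fibrosis arrays and was at least 2.79-fold lower. Its limma adjusted p, 0.00134, likewise comes from readings near background and does not test that bound. Nr1d2 also entered the test through the normal arrays only and dropped out under the same stricter filter. Nr2f1, an orphan receptor, rose by 1.11 ± 0.34 (adjusted p = 0.0447), but only 2 of 3 normal arrays had it well above background. It entered the test through the fibrosis arrays only and dropped out under the stricter filter. Of the arrays left out in turn, Nr2f1 kept its call without fibrosis array 3 only. With quantile normalization Nr2f1 did not pass (0.70, adjusted p = 0.126). Rxrg, a sister of Rxra, differed by -0.76 ± 0.31 (adjusted p = 0.110), and by -1.03 without fibrosis array 3 (adjusted p = 0.0240). Rxrg did not pass without any other single array, but it passed with the array median as scaling (-1.12, adjusted p = 0.0278).

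Among coregulators, which link receptors to chromatin, 1 of 11 rose and 1 fell with marked spots kept, with a median of -0.10. The shares of all genes in that setting were 15.8% higher and 9.12% lower. Ppargc1a, the coactivator PGC-1α, read -3.80, -3.85 and -3.51 on fibrosis arrays 1 to 3, against -5.04, -4.79 and -5.83 on normal arrays 1 to 3. The groups did not overlap, and Ppargc1a rose by 1.50 ± 0.31, or 2.83-fold (limma adjusted p = 0.0105). With the slide row as a block it did not pass (1.42, adjusted p = 0.108). Nrip1, a corepressor named after its value was seen, differed by -0.97 (adjusted p = 0.0442), and the count of 1 that fell was 0 without fibrosis array 1 or 2 and without each normal array. With marked spots left out, Carm1 (0.85, adjusted p = 0.0516), Ppargc1b (-0.85, adjusted p = 0.0571) and Tbl1xr1 (-1.09, adjusted p = 0.0641) missed the test. Carm1 differed by -0.10 with marked spots kept. Ppargc1b passed with quantile normalization, the array median, cyclic loess and normexp (adjusted p from 0.0145 to 0.0499). Tbl1xr1 passed with quantile normalization (adjusted p = 0.0351), with the array median (adjusted p = 0.0227) and without fibrosis array 3 (-1.30, adjusted p = 0.0422). It stood well above background on 2 of 3 fibrosis arrays, so it entered the test through the normal arrays only.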

How the data were processed

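Cy3-labelled cDNA of 6 rat livers was hybridised, 1 liver per array, per the labels. The deposited files hold spot intensities on a linear scale from Agilent Feature Extraction 11.5.1.1, with the processed signal corrected for background, and other columns of quality flags, per the file headers. The headers record no step that scales arrays to each other. Accessions were matched to the RefSeq gene table of GRCr8, which left 12012 of 30367 probes unnamed, and no coordinates were taken from that table. Promoter sequences are RefSeq's, found for 9 of the 10 receptor genes.

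The log2 of each processed signal was taken, and each array's 75th percentile subtracted. Control spots and marked spots were left out, and 0 spots were saturated. Probes with several spots took their mean. Testing needed a probe to be well above background (0.5 of its spots or more) on every array of 1 group or both, and to have values on 2 or more arrays in both groups, and the probe with the highest mean stood for its gene. Groups were compared with limma 3.58.1 (R 4.3.3; lmFit and eBayes), p-values were adjusted by Benjamini-Hochberg over every gene tested, and the fit was tested on simulated data. All 10 receptor genes are named. Each target or partner list gives up to 2 called genes per direction, those with the largest differences, and genes with the smallest p complete a pair. Of the other nuclear receptors, 1 gene that this rule names is not reported here. Genes without a value when marked spots were left out are given with marked spots kept. The receptor genes and lists were chosen with earlier results of these data known. Replicate numbers follow the order of the records and pair no animals. Alternatives were other scalings, normexp background on median spot signals (offset 50), filters, probe rules, eBayes settings, marked spots kept, and each array left out. The slide row as a block, single probes, and marked spots kept together with each other alternative were added after the data were seen.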

Additional observations from a re-analysis of the deposited data

How the results depend on the processing

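The count of lower receptor genes, 2 with marked spots left out, was 1 with the E1A scaling, 0 with the slide row as a block, and between 1 and 4 with each array left out, and 0 receptor genes were higher under any alternative. Over all genes, the 429 lower calls were 677 with quantile normalization, 1170 with the array median, 110 with the E1A scaling, 249 with no filter on dim probes, 96 with the slide row as a block, 991 with marked spots kept, and between 142 and 524 with each array left out; the 1352 higher calls were 740 with the slide row as a block and between 890 and 1492 with each array left out. With marked spots kept, the 3 lower receptor genes of 9 were 6 of 9 with the array median and 6 of 10 without fibrosis array 3. They were 1 with the E1A scaling or without normal array 2 or 3, and 0 with the slide row as a block. Of all genes, 23.5% were lower with the array median and 11.2% without fibrosis array 3, against 9.12% in the main fit of that setting. The cause of these shifts was not tested; leaving out an array and the slide row block also leave fewer arrays to compare. Several values that did not pass the test changed sign. Nr1h4 was 0.09 with the E1A scaling and marked spots left out. Nr1h3 was 0.05 with quantile normalization and 0.04 with cyclic loess. Nr5a2 was 0.03 with marked spots kept, and in that setting -0.32 with the array median, -0.06 with quantile normalization, -0.01 with its dimmest probe, between -0.52 (without fibrosis array 3) and 0.39 (without fibrosis array 2) with each array left out, -0.31 without normal array 2 and -0.35 with the slide row as a block. Vdr was -0.39 with quantile normalization, -0.31 with the array median, -0.16 with cyclic loess, -0.01 with normexp, -0.14 without fibrosis array 2, 0.24 without fibrosis array 3 and -0.05 without normal array 1. Gadd45b was -0.20 with the array median and between -0.17 (without normal array 1) and 0.35 (without normal array 2) with each array left out, Nfe2l2 was -0.09 with the array median, Ptges3 was 0.00 with cyclic loess, and Carm1 was -0.10 with marked spots kept. No paired analysis was possible because the replicate numbers come from the order of the records and pair no animals. Signal near background limits Ahr.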
